A study of Mus musculus with 2 samples.

Results

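The genes described here encode signals that build and maintain the small vessels of the glomerulus, the filtering unit of the kidney, and the receptors that read them. The set held 10 genes, chosen by name. The 6 ligand genes were Vegfa, Angpt1, Angpt2, Pdgfb, Cxcl12 and Sema3a, and the 4 receptor genes were Kdr, Flt1, Nrp1 and Tek. A peak belonged to a gene when its summit lay inside the gene, or lay within 100 kb of it with that gene's end the nearest among protein-coding genes. This gave 102 of 61210 peaks in the Brg1 cKO library (46 of ligand and 56 of receptor genes) and 134 of 77529 in the control library (65 and 69).

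ATAC-seq, which reads open chromatin from the cuts of a transposase, was run on tdTomato-positive cells of the Wnt4 lineage, sorted from mouse kidneys at E18.5, with 50000 cells per reaction. One library came from Brg1cKO/cKO kidneys (Brg1 cKO), a conditional knockout of Brg1, which is an ATPase subunit of BAF chromatin remodelling complexes and is encoded by Smarca4. The other came from WT kidneys (control). The sources used here do not name the Cre driver, the number of animals pooled or the depth of sequencing that was reached. The cell type label of the control library reads only control, so its lineage is taken from its title and the shared protocol. Each genotype had 1 library, so no difference between them has a replicate check and no test between genotypes was made. The data are the authors' peak lists on mm10, and where a list has no peak the chromatin may still be open below the caller's threshold.

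Smarca4 had 2 cKO peaks, both overlapping control peaks, and 3 control peaks, of which 2 overlapped cKO peaks. These counts do not check the genotype, since the peaks were not compared with the position of a deleted part. All 5 genes of the Wnt4 lineage and early nephron (Wnt4, Pax2, Pax8, Lhx1 and Six2) had their start site under a peak in both lists. The same held for the 5 endothelial marker genes, of 8, whose start is listed, and for all 6 mesangial and pericyte marker genes. Immune and erythroid genes had no peak over a start site in either list, for 2 genes each. Of all protein-coding genes with a listed start, 64.5% had it under a cKO peak and 65.4% under a control peak.

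Podocytes, the epithelial cells that wrap glomerular capillaries, secrete VEGF-A, which acts on endothelial cells through the receptor tyrosine kinases encoded by Kdr (VEGFR2) and Flt1 (VEGFR1), with the coreceptor neuropilin 1 encoded by Nrp1. Angiopoietin 1 activates the endothelial receptor Tie2, encoded by Tek, and angiopoietin 2 can oppose it. PDGF-B made by endothelium recruits mesangial cells, the chemokine CXCL12 guides vessel cells, and semaphorin 3A binds neuropilin 1. The Wnt4 lineage includes the nephron epithelium, podocytes among it, whereas Kdr, Flt1 and Tek are best known from endothelium.

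Promoters of 4 members are shown because their openness ran from the broadest peak of the set (Vegfa) through a receptor with a strong start-site peak (Kdr) and one with a weak peak (Tek) to a start site with none (Sema3a). Each is the 250 bases before the start site in RefSeq (GRCm38.p6, the assembly of mm10), read 5′ to 3′ along the gene's strand. Capitals mark matches on either strand to the motifs searched, which in these 4 were the GC box GGGCGG and, in Kdr, also the ETS core CCGGAA, each shown as read along the printed strand or as its reverse complement. Vegfa lies at chr17:46032378-46032627 on the minus strand, Kdr at chr5:75978456-75978705 on the minus strand, Tek at chr4:94739039-94739288 on the plus strand and Sema3a at chr5:13396534-13396783 on the plus strand.
Vegfa: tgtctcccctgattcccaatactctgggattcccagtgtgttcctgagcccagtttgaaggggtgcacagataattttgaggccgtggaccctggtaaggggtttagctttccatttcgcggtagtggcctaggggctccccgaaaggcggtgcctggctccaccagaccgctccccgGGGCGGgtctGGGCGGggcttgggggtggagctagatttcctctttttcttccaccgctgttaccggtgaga
Kdr: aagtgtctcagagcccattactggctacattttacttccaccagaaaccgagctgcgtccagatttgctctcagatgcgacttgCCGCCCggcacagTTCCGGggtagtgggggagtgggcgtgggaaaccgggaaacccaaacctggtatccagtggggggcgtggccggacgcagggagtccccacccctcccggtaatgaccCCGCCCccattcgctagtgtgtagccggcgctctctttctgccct
Tek: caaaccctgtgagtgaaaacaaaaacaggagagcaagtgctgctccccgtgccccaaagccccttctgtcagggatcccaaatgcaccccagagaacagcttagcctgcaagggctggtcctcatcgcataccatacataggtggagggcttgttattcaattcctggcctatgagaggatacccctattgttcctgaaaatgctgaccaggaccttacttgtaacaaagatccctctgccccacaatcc
Sema3a: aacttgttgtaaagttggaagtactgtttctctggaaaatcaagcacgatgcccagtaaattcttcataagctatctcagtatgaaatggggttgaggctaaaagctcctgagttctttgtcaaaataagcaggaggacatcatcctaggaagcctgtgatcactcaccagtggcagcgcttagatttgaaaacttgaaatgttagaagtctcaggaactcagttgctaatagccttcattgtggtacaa

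The promoter table had an entry for 7 of the 10 members, with none for Angpt1, Angpt2 and Pdgfb. G and C made up 59.2% of the Vegfa, 61.6% of the Kdr, 51.2% of the Tek and 40.8% of the Sema3a stretch, against a median of 55.6% over 21262 promoters of protein-coding genes. The GC box, a site known to be bound by Sp1-type factors, was present on either strand in 42.6% of those promoters. It matched at 2 places in Vegfa, 2 in Kdr, 3 in Flt1, 1 in Nrp1 and 5 in Cxcl12, of which 2 share a base, and at none in Tek and Sema3a. The ETS core, present in 3188 of the 21262 promoters, matched in Kdr alone among the 7. AP-1 (TGANTCA, in 6.13% of promoters), the hypoxia response core ACGTG (17.8%), the forkhead core TGTTTAC (2.62%) and the E-box CACCTG (16.9%) matched in none of the 7 stretches, and a search of the 300-base window that adds the 50 bases after the start gave the same counts for these 7 genes. A match describes letters only, and a missing match says nothing about any factor.

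Nearly every member was open at its start in both libraries. Of the 7 members with a listed start, 6 had it under a peak in both lists. These were Vegfa, Cxcl12, Kdr, Flt1, Nrp1 and Tek. At Sema3a no peak of either list covered the listed start, which lies inside the annotated gene (chr5:13124822-13603485, plus strand). Both lists had a peak with its summit 1.11 kb past the first base of that gene (control peak chr5:13125262-13126295). It lay at percentile 25.1 of the control list and 5.26 of the cKO list. Over all 17491 protein-coding genes with a listed start, 64.5% had a start site under a cKO peak and 65.4% under a control peak. Angpt1, Angpt2 and Pdgfb, whose start sites were not in the table, had a peak over a gene end in both lists. All of these start-site and gene-end peaks overlapped a peak of the other list.

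The start-site peak of Vegfa was among the broadest of the whole data. It spanned 7.36 kb in the cKO list (chr17:46027043-46034404) and 7.40 kb in the control list (chr17:46027048-46034448), wider than 99.9% of the peaks of either list. Its strength, taken as the authors' -log10 p and ranked within each list, lay at percentile 93.8 of cKO peaks and 93.4 of control peaks. At Nrp1 the start-site peak spanned 4.39 kb in the cKO (chr8:128356188-128360580) and 5.72 kb in the control (chr8:128356182-128361898), where the control peak covered 2 cKO peaks. At Cxcl12 it spanned 3.56 kb in the cKO and 4.24 kb in the control, and at Kdr 1.93 kb in the cKO and 2.18 kb in the control. The Flt1 start lay in a 1.95 kb cKO peak and a 2.88 kb control peak, which covered 2 cKO peaks. The Tek start had the weakest of these peaks, at percentile 13.6 in the cKO list and 38.3 in the control list. The nearest strong peak to the Sema3a start, with its summit 2.50 kb downstream in the cKO list, lay at percentile 72.9 there (chr5:13398131-13400154) and at 77.2 in the control list (chr5:13398097-13400668). Of the members' peaks, 2 cKO peaks covered 2 or more control peaks (1.45% of all cKO peaks did), and 3 control peaks covered 2 or more cKO peaks (1.29% of all control peaks).

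All peaks of the members, those at start sites included, were next set against all peaks of each list. Of the cKO peaks of the 10 genes, 9 of 102 had no control counterpart; 5.92% of all 61210 cKO peaks had none. Of the control peaks, 42 of 134 had no cKO counterpart, against 25.9% of all 77529 control peaks. Put as shares found, 93 of 102 cKO peaks (91.2%, exact binomial 95% interval 83.9 to 95.9%) and 92 of 134 control peaks (68.7%, 60.1 to 76.4%) overlapped the other list by at least 1 bp. The intervals cover counting error only, and peaks of 1 library are not replicates of a genotype. Peaks of the same strength and position would give 90.9% for the cKO and 71.1% for the control, both within these intervals. In cells sorted in bulk, fewer cells of a type and less open chromatin per cell cannot be told apart.

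**Figure D1:**
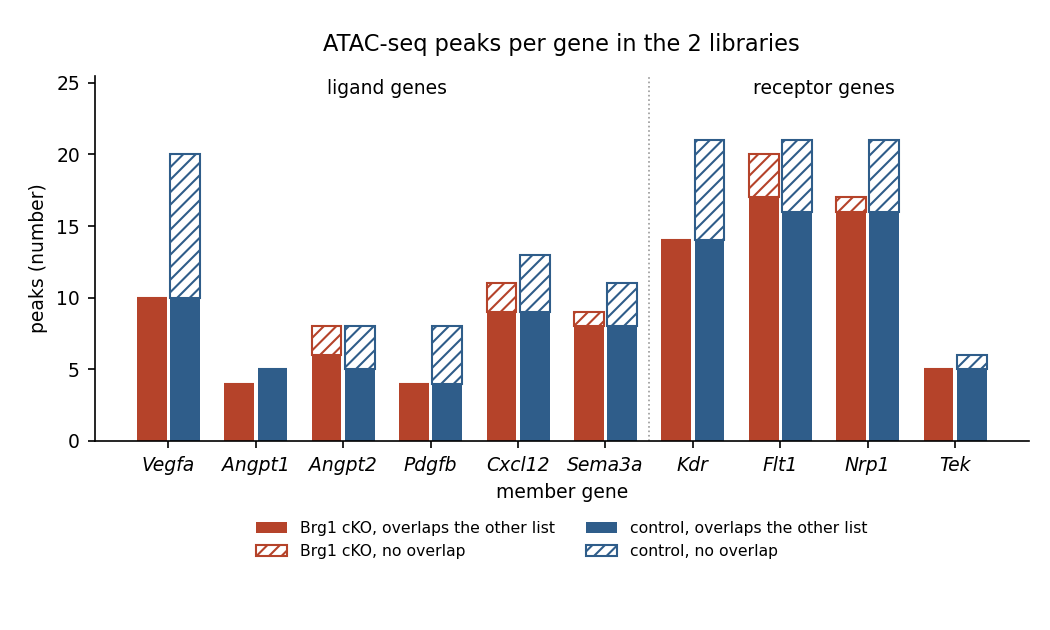
Number of peaks of each member (vertical axis) in the Brg1 cKO library (left bar of each pair) and the control library (right bar), split into peaks that overlap the other list (filled) and peaks that do not (hatched); 1 library per genotype, so there are no error bars. Vegfa has 10 cKO peaks, all matched, and 20 control peaks with 10 matched, and Kdr has 14 cKO peaks, all matched, and 21 control peaks with 14 matched.

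Ligand genes were set against receptor genes next. Of cKO peaks, 41 of 46 were found in the control list at ligand genes (89.1%, 76.4 to 96.4%) and 52 of 56 at receptor genes (92.9%, 82.7 to 98.02%). Of control peaks, 41 of 65 were found in the cKO list at ligand genes (63.1%, 50.2 to 74.7%) and 51 of 69 at receptor genes (73.9%, 61.9 to 83.7%). In both lists the intervals of ligand and receptor genes overlap, which does not show that the shares are equal. The difference was not tested. Given the strength and position of the peaks, 71.6% was expected for control peaks of ligand genes, and 70.7% for those of receptor genes. Found minus expected was -8.50 points for ligand genes and 3.18 points for receptor genes. With strength taken from peak area the differences were -12.6 points for ligand genes and 0.21 points for receptor genes. The expected shares were then 75.6% for ligand genes, above their interval, and 73.7% for receptor genes, within theirs.

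Vegfa held 10 of the 24 unmatched control peaks of the ligand genes. Without it the other 5 ligand genes had 31 of 36 cKO peaks found (86.1%) and 31 of 45 control peaks found (68.9%, 53.4 to 81.8%), 5.02 points below the receptor genes in place of 10.8. Among the ligand genes the share of control peaks found ran from 50% at Vegfa and Pdgfb to 100% at Angpt1. Among the receptor genes it ran from 66.7% at Kdr to 83.3% at Tek. Expected for control peaks of ligand genes were 70.2% at Vegfa, 74.7% at Pdgfb, 71.1% at Angpt1, 66.4% at Angpt2, 79.1% at Cxcl12 and 66.9% at Sema3a. For receptor genes they were 62.1% at Kdr, 78.6% at Flt1, 73.6% at Nrp1 and 63.5% at Tek. By share of control peaks found, the median gene of the ligands had 65.9%, that of the receptors 76.2%, all 10 together 71.0%, and the 5135 protein-coding genes that had 5 or more control peaks 73.9%. Of the 10 members, 9 had more peaks in the control list alone than in the cKO list alone, the exception being Angpt1 with none of either; 80.6% of the 5135 genes did so. Every cKO peak was matched at 5 members, and at 73.9% of the 5135 genes.

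**Figure D2:**
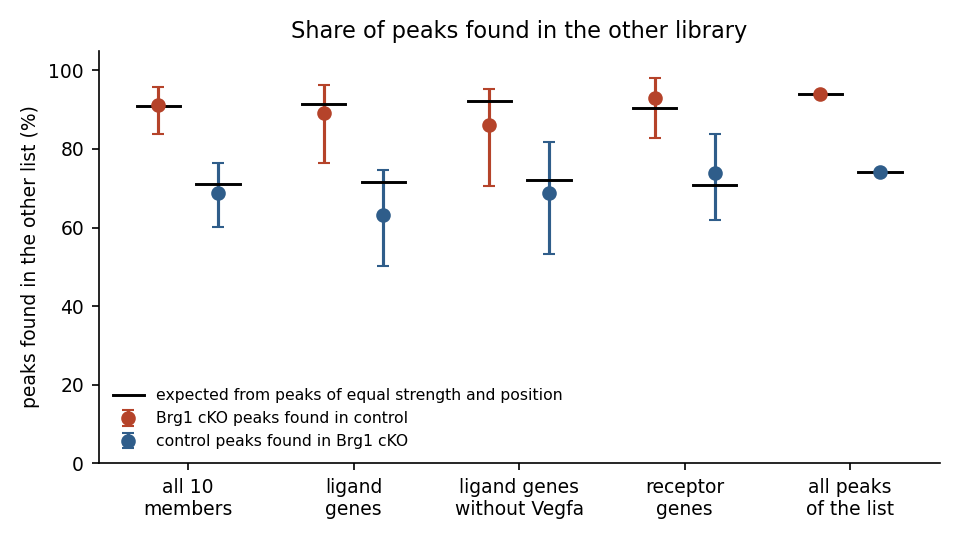
Percentage of peaks that overlap the other list (vertical axis) for Brg1 cKO peaks (left of each pair) and control peaks (right), with exact binomial 95% intervals that cover counting error only and, as black lines, the share expected from all peaks of equal strength and position. Control peaks of ligand genes sit at 63.1% with 71.6% expected, and those of receptor genes at 73.9% with 70.7% expected.

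Ligand and receptor genes were also set side by side by peak strength and position. In the stronger 50% of the cKO list all 18 peaks of ligand genes and all 18 of receptor genes were found in the control list; 0.107% of such cKO peaks had no counterpart. In the stronger 50% of the control list 29 of 31 peaks of ligand genes and 26 of 28 of receptor genes were found in the cKO list, where 4.98% of all such peaks were not. In the weaker 50% of the cKO list 23 of 28 ligand peaks and 34 of 38 receptor peaks were found, with 11.8% of all such peaks unmatched. In the weaker 50% of the control list 12 of 34 peaks of ligand genes (35.3%, 19.7 to 53.5%) and 25 of 41 of receptor genes (61.0%, 44.5 to 75.8%) were found, with 46.7% of all such peaks unmatched. These intervals overlap as well, and this difference was not tested either. Expected in the weaker 50% of the control list were 52.3% of ligand and 56.0% of receptor peaks. Found minus expected was -17.0 points for ligand genes and 4.96 points for receptor genes. With strength taken from peak area the expected shares were 59.6%, above the ligand interval, and 61.1%, within the receptor interval. By position, with the summit inside the gene, 19 of 20 ligand and 30 of 34 receptor cKO peaks were found, and 19 of 25 and 29 of 37 control peaks. With the summit outside it, 22 of 26 ligand and 22 of 22 receptor cKO peaks were found, and 22 of 40 and 22 of 32 control peaks. Expected inside were 93.5% of ligand and 90.3% of receptor cKO peaks, and 75.6% and 73.5% of control peaks. Expected outside were 89.97% and 90.8% of cKO peaks, and 69.1% and 67.5% of control peaks. In this split by position, control peaks of ligand genes outside the gene differed most from expected, at 55% found. Their interval, 38.5 to 70.7%, covers that expected share of 69.1%. It does not cover the 72.9% expected with strength taken from peak area.

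**Figure D3:**
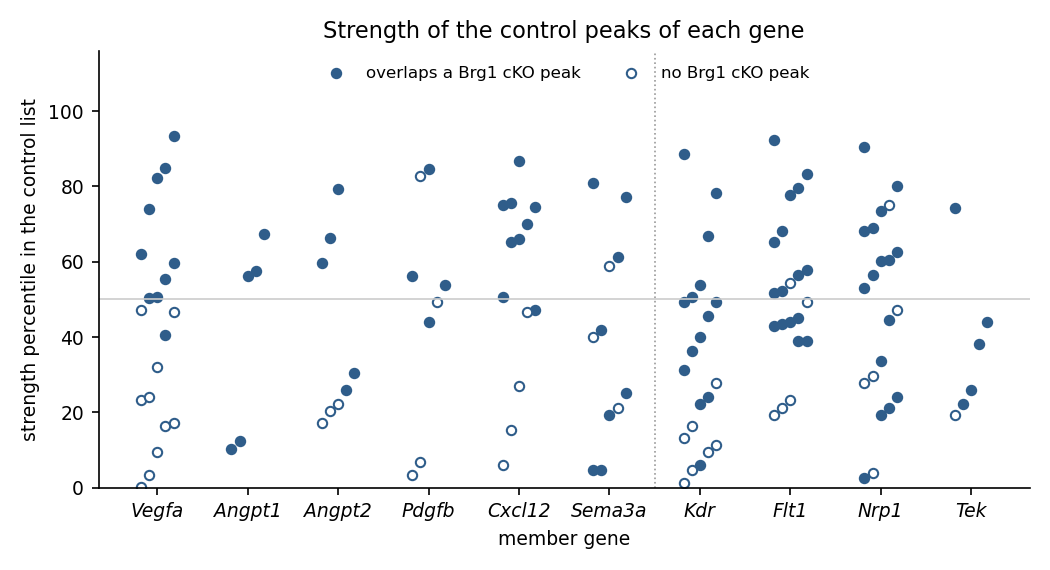
Strength of each control peak as its percentile of -log10 p within the control list (vertical axis), by member; filled points overlap a Brg1 cKO peak and open points do not, and points are spread sideways for legibility. Of the 42 open points 38 lie in the weaker 50% of the list, and the highest, at percentile 82.7, belongs to Pdgfb.

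Vegfa (chr17:46016993-46032377) encodes the main growth factor for glomerular endothelium. All 10 of its cKO peaks were found in the control list, and 10 of its 20 control peaks were found in the cKO list (50%, 27.2 to 72.8%), where 70.2% was expected. A lower share was seen at 8.65% of the 5135 genes, and the same or a lower share at 13.4%, Pdgfb among them. Upstream of the start site all 4 cKO peaks and 4 of 6 control peaks were matched. Beyond the far end of the gene all 5 cKO peaks but 5 of 12 control peaks were matched. The only further control peak inside the gene, 5.86 kb past the start, had no cKO counterpart, although it ended 0.32 kb from the broad start-site peak that both lists share. The unmatched control peaks lay between percentiles 0.27 and 47.1 of the control list, all in its weaker 50%. The strongest of them (chr17:45932642-45934073) lay 84.2 kb from the gene end and 0.78 kb from the nearest cKO peak.

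**Figure D4:**
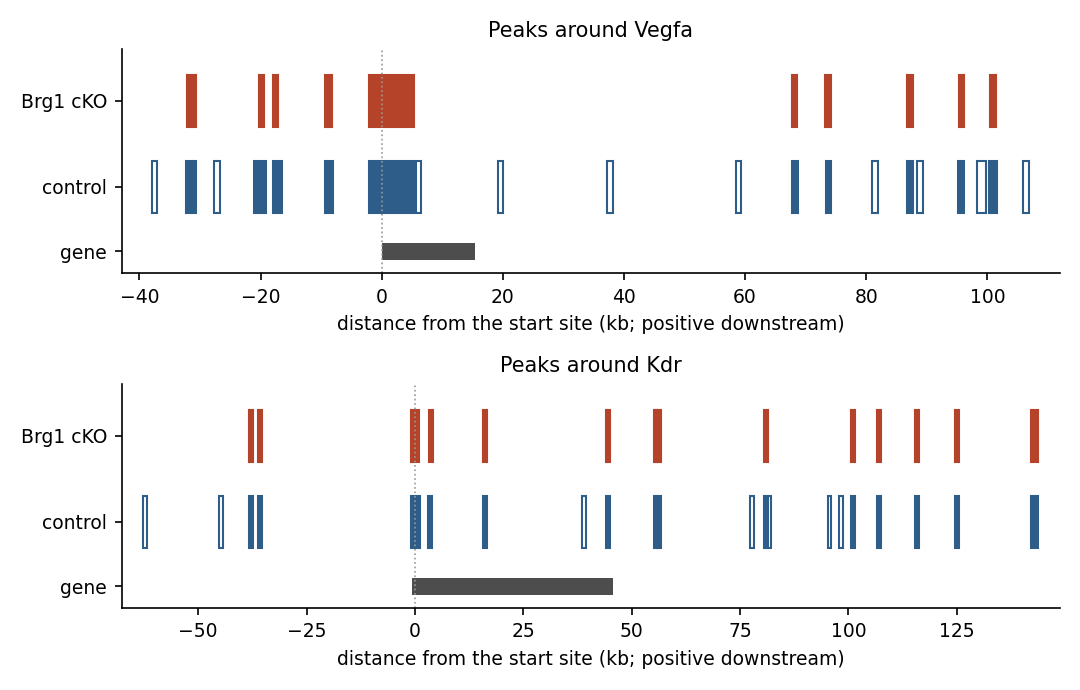
Peaks around Vegfa and Kdr by distance from the start site in kb (horizontal axis, positive in the direction of transcription), with Brg1 cKO peaks above control peaks and the gene as a dark bar; filled boxes overlap the other list, open boxes do not, and boxes under 0.9 kb are drawn 0.9 kb wide. The broad Vegfa start-site peak, 7.36 kb in the cKO and 7.40 kb in the control, stands in both rows, while 7 of 12 control peaks beyond the far gene end are open boxes.

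Peaks that both lists share can be ranked over the same set. There were 54820 pairs in which 1 peak of each list overlapped the other and no further peak, and the strength of each was ranked among those pairs in its own list. The members held 85 of them. The median difference in percentile, cKO minus control, was 0.42 points over all pairs, with a middle 80% from -15.3 to 14.6 points. It was -2.51 over the 38 pairs of ligand genes and -2.74 over the 47 of receptor genes. The cKO rank was the lower one in 22 of 38 ligand pairs and 31 of 47 receptor pairs, against 46.2% of all pairs.

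Vegfa stood lowest among the members by this measure. Its 10 pairs had a median difference of -23.5 points by -log10 p and -26.1 by peak area, and 9 of 10 ranked lower in the cKO list. The exception was the start-site peak, at percentile 93.4 of the cKO ranks and 91.1 of the control ranks. The pair 19.9 kb upstream of the start (control peak chr17:46051446-46053480) stood at percentile 14.4 in the cKO and 65.4 in the control. The one 17.4 kb upstream in the control list (chr17:46048814-46050373) stood at 0.47 in the cKO and 47.2 in the control. The one 100.97 kb downstream in the control list (chr17:45930796-45932049) stood at 39.4 in the cKO and 79.6 in the control. In 5 of the 10 Vegfa pairs the difference lay under the 10th percentile of all pairs of like control strength, a bound that 9.98% of all pairs passed. The same held for 4 of 15 pairs of Flt1, 3 of 14 of Kdr, 1 of 4 each of Angpt2 and Pdgfb and 1 of 13 of Nrp1, and for none of Angpt1, Cxcl12, Sema3a and Tek. In all it was 7 of 38 pairs of ligand genes and 8 of 47 of receptor genes. Without Vegfa the median of the ligand pairs was 0.65 points, the opposite sign to that with it.

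**Figure D5:**
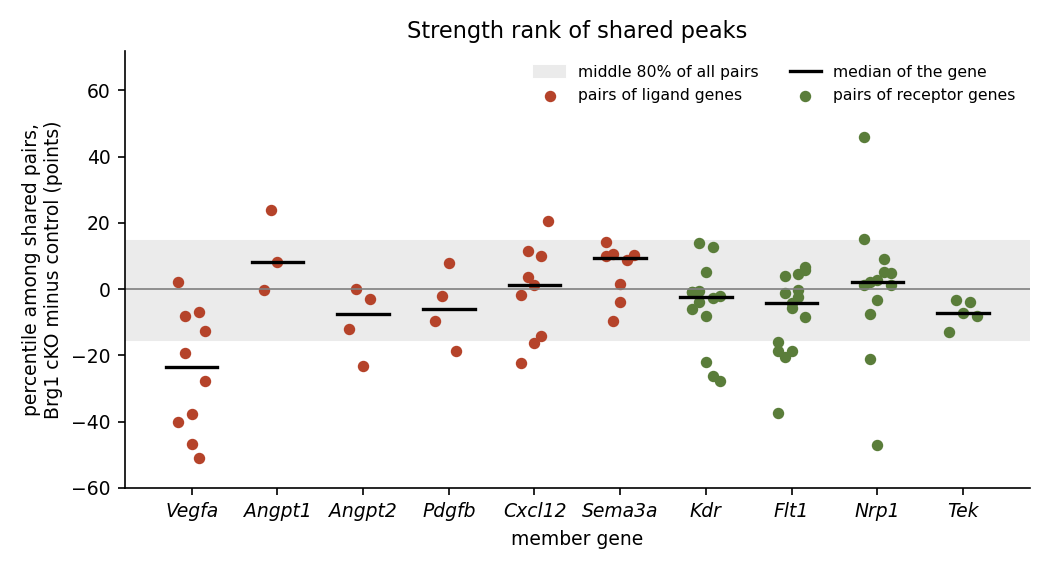
Difference in strength percentile among 54820 shared pairs of peaks, Brg1 cKO minus control in points (vertical axis), for each pair of each member; black lines are medians per gene and the grey band is the middle 80% of all pairs. The Vegfa pairs have a median of -23.5, and those of Sema3a 9.47.

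The angiopoietin genes had few peaks. At Angpt1 (chr15:42424667-42676977) all 4 cKO peaks and all 5 control peaks were matched, the cKO peak at the gene end (chr15:42675783-42677077) covering 2 control peaks. Its 3 pairs had a median rank difference of 8.16 points. At Angpt2 (chr8:18690263-18741562) 6 of 8 cKO peaks and 5 of 8 control peaks were matched. The 2 unmatched cKO peaks and the 3 unmatched control peaks were weak, at percentiles up to 30.5 of the cKO list and up to 22.3 of the control list. The gene-end peak of Angpt2 was its strongest in both lists, at percentile 71.1 in the cKO and 79.3 in the control.

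Pdgfb (chr15:79995865-80024614) had 4 cKO peaks, all matched, and 8 control peaks, 4 of them matched (50%, 15.7 to 84.3%). Found minus expected for its control peaks was -24.7 points, and for those of Vegfa -20.2 points. Its strongest peak in both lists lay inside the gene and spanned 4.26 kb in the cKO (chr15:80011271-80015531) and 4.55 kb in the control (chr15:80011083-80015628), wider than 98.9% of cKO and 99.4% of control peaks. The unmatched control peak chr15:79983409-79985114, 1.71 kb wide and 11.6 kb from the gene end, lay at percentile 82.7 of the control list and 19.2 kb from the nearest cKO peak. In its class of strength, the ninth of 10 from the weakest up, 7765 of 7775 control peaks overlapped a cKO peak, which makes it 1 of 10 that did not. Of the other 3 unmatched control peaks, 2 lay within 1 kb of a cKO peak.

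Cxcl12 (chr6:117168535-117181368) had 9 of 11 cKO peaks and 9 of 13 control peaks matched. Upstream of its start 5 of 6 cKO peaks and 5 of 6 control peaks were matched, and beyond its far end 2 of 3 cKO and 2 of 5 control peaks. Its 9 pairs differed in rank by a median of 1.20 points. Sema3a (chr5:13124822-13603485) had 8 of 9 cKO peaks and 8 of 11 control peaks matched. All 3 of its unmatched control peaks lay inside the gene, the strongest at percentile 58.8 (chr5:13440654-13441627). The strongest Sema3a peak of the control list (chr5:13628700-13629346, percentile 80.9) lay 25.7 kb from the gene end and was matched. Its 8 pairs had the highest median rank difference of the members, 9.47 points, with 6 of 8 ranking higher in the cKO list. Pairs weak in the control list ranked higher in the cKO list in general. Over all pairs in the weakest of 10 bands of control strength the median difference was 6.31 points, with a 90th percentile of 25.6. No pair of Sema3a or Angpt1 rose past the 90th percentile of its band.

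Kdr (chr5:75932827-75979072), the main signalling receptor for VEGF-A, had 14 cKO peaks, all matched, and 14 of 21 control peaks matched (66.7%, 43.0 to 85.4%), with 62.1% expected. Its 7 unmatched control peaks were weak, at percentiles from 1.36 to 27.9. Of these, 2 lay upstream of the start, 1 inside the gene and 4 beyond its far end. Rank differences of its 14 pairs had a median of -2.40 points, with 11 of 14 lower in the cKO list and -3.77 at the start-site pair. Genes with the same 4 counts as Kdr were Bcas1 and Itga6, and Arhgap10 differed by 1 control peak; for Vegfa they were Dnah17 and Nuak1, with Cdh13 differing by 1. These share numbers of peaks in 2 libraries and nothing more was measured.

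Flt1 (chr5:147561604-147726438), whose product also acts as a soluble trap for VEGF-A, had 17 of 20 cKO peaks and 16 of 21 control peaks matched. Inside the gene past its start 10 of 13 cKO peaks and 10 of 15 control peaks were matched, and upstream all 6 cKO peaks and all 5 control peaks. The strongest Flt1 peak of both lists was narrow, 282 bp in the cKO and 288 bp in the control, 114 kb past the start (cKO peak chr5:147611390-147611671). It lay at percentile 94.7 of the cKO list and 92.4 of the control list by -log10 p, but by area at 60.9 of the cKO list and 61.8 of the control list. Median rank difference over 15 pairs was -4.08 points, with 11 of 15 lower in the cKO.

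Nrp1 (chr8:128358591-128505476) had 16 of 17 cKO peaks and 16 of 21 control peaks matched. Beyond its far end the single cKO peak was matched and 1 of 4 control peaks was, and inside the gene past its start 10 of 11 cKO peaks and 9 of 10 control peaks. The unmatched control peak chr8:128543988-128545128, 39.2 kb from the gene end, lay at percentile 75.1 of the control list. In its class of strength 97.2% of control peaks were found. The 13 pairs of Nrp1 included both the highest and the lowest rank difference of the receptor genes. The control peak chr8:128424296-128425354 stood at percentile 57.1 in the cKO and 11.0 in the control, and chr8:128289965-128291237 at 0.93 in the cKO and 47.9 in the control. Tek (chr4:94739086-94874976) had 5 cKO peaks, all matched, and 5 of 6 control peaks matched. All 5 Tek pairs ranked lower in the cKO list, with a median difference of -7.30 points. Its strongest peak, 13.4 kb past the start, lay at percentile 64.1 of the cKO list and 74.4 of the control list.

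All 9 unmatched cKO peaks of the members and 38 of their 42 unmatched control peaks lay in the weaker 50% of their list. The 9 unmatched cKO peaks lay at percentiles from 1.02 to 33.0 of the cKO list, with a median of 12.5. The strongest per gene stood at 33.0 for Sema3a, 30.5 for Angpt2, 18.6 for Nrp1, 12.5 for Cxcl12 and 4.49 for Flt1. The 42 unmatched control peaks lay at percentiles from 0.27 to 82.7 of the control list, with a median of 21.3. After Pdgfb, Nrp1, Sema3a and Vegfa, given above, the strongest per gene stood at 54.3 for Flt1, 46.6 for Cxcl12, 27.9 for Kdr, 22.3 for Angpt2 and 19.3 for Tek. Their median distance to the nearest cKO peak was 4.91 kb, and 6 of the 42 lay under 1 kb from one.

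Other genes of these pathways were counted from 2 further lists. Of 14 other ligand genes, among them Vegfc, Pgf, Pdgfa and Dll4, 57 of 59 cKO peaks (96.6%) and 58 of 83 control peaks (69.9%, 58.8 to 79.5%) were found, with 69.1% expected for the control peaks. Of 12 other receptor genes, 93 of 97 cKO peaks (95.9%) and 92 of 128 control peaks (71.9%, 63.2 to 79.5%) were found, with 69.2% expected. Efnb2, which encodes the arterial ligand ephrin B2, had 4 cKO peaks, all matched, and 4 of 13 control peaks matched, and Pdgfa had 8 of 8 cKO and 8 of 14 control peaks matched. Among the other ligand genes with at least 5 control peaks, 3 had every control peak matched: Sema3f had 8 of 8 cKO and 8 of 8 control peaks matched, Pgf 5 of 6 cKO and 5 of 5 control peaks, and Dll4 6 of 6 cKO and 5 of 5 control peaks. Nrp2, the second neuropilin gene, had 22 of 22 cKO and 20 of 29 control peaks matched, and Ackr3, a scavenging receptor for CXCL12, 11 of 11 cKO and 10 of 17 control peaks. The semaphorin receptor genes Plxna1 and Plxna2 tied with Ackr3 at 7 unmatched control peaks. Flt4, the receptor gene of lymphatic vessels, had all 8 peaks matched in each list, and Pdgfra 5 of 6 cKO and 5 of 5 control peaks.

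Markers of the cells that could carry these signals were read in the same way. Podocyte genes had 73 of 74 cKO peaks and 69 of 127 control peaks found (54.3%, 45.3 to 63.2%), with 70.1% expected for the control peaks. Of the 3 podocyte genes with a listed start, Ptpro and Kirrel had it under a peak in both lists, and Nphs1, which encodes the slit diaphragm protein nephrin, under a control peak only. Endothelial genes had 48 of 52 cKO and 49 of 67 control peaks found (73.1%, 60.9 to 83.2%), with 70.9% expected. Mesangial and pericyte genes had 33 of 36 cKO and 34 of 41 control peaks found (82.9%, 67.9 to 92.8%), with 75.7% expected. Wnt4 lineage genes had 60 of 63 cKO and 58 of 79 control peaks found (73.4%), with 74.1% expected for the control peaks. Among them were 15 of 16 cKO and 14 of 20 control peaks of Wnt4. Immune genes had 12 of 14 cKO and 12 of 21 control peaks found, and erythroid genes 5 of 5 cKO and 5 of 9 control peaks. The part of cell composition in the shares of the members was not tested.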

How the data were processed

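ATAC-seq peak lists of 2 libraries, 1 of Brg1 cKO and 1 of control cells, were used as deposited. Per the submitters' processing notes, the authors used Genrich, SAMtools and Trim Galore, with mm10 as the build. Not given in the sources used here are the aligner, the versions and settings, and whether read ends were moved to the cut site. Per the labels and file layout, each list is in narrowPeak form. The deposited score is a whole number capped at 1000 and was not used. The deposited signal is the area under the caller's curve, not scaled between libraries, and the deposited -log10 p-value and -log10 q-value are the caller's. These depend on depth, which is unknown, so they served only to rank peaks within a list or within shared pairs; a shallower library yields fewer weak peaks. Coordinates are mm10 and 1-based, with genes and promoters from RefSeq GRCm38.p6.

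Peaks were assigned by summit, matched by an overlap of at least 1 bp and divided into 10 classes of strength by -log10 p, with Python 3.11.15, pandas 2.3.3, NumPy 2.4.6 and SciPy 1.17.1. The expected share is that of all peaks of the same list, class and position, near meaning a summit within 1000 bp of any annotated gene end. Shares have exact Clopper-Pearson 95% intervals. Assignment and matching were tested on simulated data. The genes and lists were chosen with earlier results of these data known, and the ranking of shared pairs was chosen after the data were seen. Named were all members, Smarca4 and Wnt4, for each member its strongest, its strongest unmatched and its start-site peaks, the 3 genes nearest in counts to Vegfa and Kdr, and at most 2 genes with the most and 2 with the fewest unmatched control peaks in each further pathway list, among genes with at least 5 control peaks and with ties. Other peaks and marker genes named were chosen after their values were seen.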

Additional observations from a re-analysis of the deposited data

How the results depend on the processing

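Of 48 values under planned settings, 38 stayed within the counting interval of the value reported. With 50% of both peaks covered, 82.4% of the members' cKO peaks were found, against 88.4% of all cKO peaks. With the stronger 50% of each list, which leaves fewer peaks, it was 97.2% of all members' cKO peaks and 100% of those of ligand genes, against 95.2% of all cKO peaks, and 59.3% of all members' control peaks (45.7 to 71.9%) and 57.1% of those of receptor genes, against 75.4% of all control peaks. With equal list lengths it was 83.3% of the members' cKO peaks, against 84.3% of all, and 79.2% of the members' control peaks and 84.2% of those of receptor genes, against 83.6% of all. With summits inside the gene only, 77.4% of the members' control peaks and 76% of those of ligand genes were found. The cause was not tested.

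Control peaks of ligand genes had a lower share than those of receptor genes under 8 of 9 settings, by 1.43 to 14.2 points. These 8 include the setting reported and the match by summit, which gave the same counts. The share was higher, by 4.15 points, in the stronger 50% of each list. Ligand minus receptor was -1.43 points when all annotated genes competed for peaks, with 26 of 37 and 38 of 53 control peaks found. It was -2.38 points with summits inside the gene only, but -11.5 points with summits within 50000 bp. The gap thus depended on how peaks were assigned. For cKO peaks the order turned under 2 of 9. Settings without Vegfa and with area in place of -log10 p were added after the data were seen. Without Vegfa the median rank difference of ligand pairs was 0.65 points in place of -2.51. No paired analysis was possible because each genotype has 1 library. Depth is unknown, so differences among weak peaks were not separable from sensitivity of the libraries.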
